A study of Mus musculus with 4 samples.

Results

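The motor genes examined here encode the kinesins, the cytoplasmic dyneins, their light chains and the numbered subunits of dynactin, the dynein cofactor. They were taken by gene symbol, as every gene with an ID whose symbol began with Kif followed by a digit or c, Klc followed by a digit, Dync, Dynl or Dctn. The mitotic kinesins Kif11, Kif20a, Kif23 and Kif2c were set aside. The rule used no expression value and gave 49 of the 12861 genes with an ID. Kif1a, Kif16b, Kif21a, Kif27, Dync1i1, Dynlrb2 and the Dynlt1 genes were not among the 49, so the set is no full inventory. Of the 49, 44 had a mean of at least 10 normalised tags per library and were tested.

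Kinesins and cytoplasmic dynein are ATP-driven motors that walk along microtubules. Most kinesins move towards the plus end, which in an axon points away from the cell body, whereas cytoplasmic dynein moves towards the minus end. Kinesin-1 pairs heavy chains of the Kif5 family with light chains that bind cargo. Dynein 1 works with dynactin in retrograde axonal transport, and dynein 2 works in the retrograde transport of cilia. In dividing cells such as a neuroblastoma line, other kinesins and dynein also act on the spindle.

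The cells were Neuro-2A, a mouse neuroblastoma line from the Swiss Albino strain. One group was transfected with the plasmid pRK5-Zac1, which carries Zac1, a zinc-finger transcription factor encoded by the imprinted gene Plagl1. The control group received pRK5-CAT, which carries a bacterial chloramphenicol acetyltransferase gene. Both were delivered with Lipofectamine, RNA was taken 16 h later, and each group held 2 libraries from separate transfections, numbered 9 and 12. Whole cultures were profiled, so a change in a fraction of the cells and a smaller change in all of them cannot be told apart, and neither can fewer cells of a type and less RNA per cell. All groups share the same line and reagent, and no untransfected cells were analysed here.

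Expression was read as digital gene expression tags. A poly(A) transcript is cut with DpnII at GATC and gives a short tag beside its site nearest the 3′ end, so a transcript is counted once whatever its length. Levels below are normalised tag counts, and different genes are compared on that scale without a correction for length. The tags that carry the findings are shown as predicted from the GENCODE M21 mouse transcripts of the GRCm38 build, 5′ to 3′, with the DpnII site in capitals. The first 5 belong to the tested motor genes whose log2 fold changes were furthest from 0.
Kifc2: GATCaagaggaggcactcta
Klc3: GATCgctccctgcaattaaa
Klc4: GATCtctactttggagtcct
Dync2h1: GATCcagtgtggggcagcgc
Kif18a: GATCctaacgtgcttaaact
The others belong to pairs of close relatives whose levels are set side by side below.
Dynll1: GATCaggctttgtttgctgt
Dynll2: GATCtgtgtttccctgccct
Kifc1: GATCcagagcctgattccct
Kifc5b: GATCcagagcccttgcaagc
All 49 motor genes had a predicted tag of 20 bases, lying 44 to 1527 bases from the transcript's end. The tags of Dynll1 and Dynll2 differed at 8 bases, and those of Kifc1 and Kifc5b shared their first 11 bases and differed at 9. The tag of 1 motor gene, Kif22, was also predicted for its pseudogene Kif22-ps, so the Kif22 level is uncertain. Which tags the authors assigned to each gene is not given in the sources used here.

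Libraries held between 11578920 and 13840674 recovered tags, and motor genes took 0.504% to 0.537% of them. Plagl1, the targeted gene, had no tag in either CAT library and 3397 and 1475 normalised tags in Zac1 replicates 9 and 12, as the labels have it, and these values may hold tags of the plasmid. All 9 neuroblastoma and neuronal markers were present, with summed levels of 26173 to 31214 per library. Markers of fibroblasts, endothelium and macrophages were near absent, at 15 to 35.6, 14.8 to 27.3 and 7.45 to 12.1 summed tags, from 3 of 5, 3 of 5 and 2 of 5 genes. Glial markers summed to 243 to 389 from 3 of 5 genes, nearly all of it Mbp, while Gfap stayed at or under 6.94. Replicates differed by more than counting error, and more so between the Zac1 libraries (chi-square per degree of freedom 42.2) than between the CAT libraries (14.4).

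Kifc2 was higher after Zac1 transfection, and no other motor gene passed the test. Kifc2 encodes a minus-end-directed kinesin-14 with its motor at the C terminus, found mainly in neurons in the mouse. Its mean was 4.09 times higher in the Zac1 libraries. The summed level of all 49 motor genes lay between 64695 and 66723 in every library, and the 4 dynein light chain genes gave 29066 to 32501 of it. Motor genes called higher were thus 1 of 44, or 2.27%, beside 110 of 11433 genes tested, or 0.962%. No motor gene fell, and over all genes tested 0% did (limma, adjusted p under 0.05). At an unadjusted p under 0.05, limma gave 5 motor genes higher and 0 lower, or 11.4% and 0%, against 5.23% higher and 0.962% lower over all genes.

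**Figure D1:**
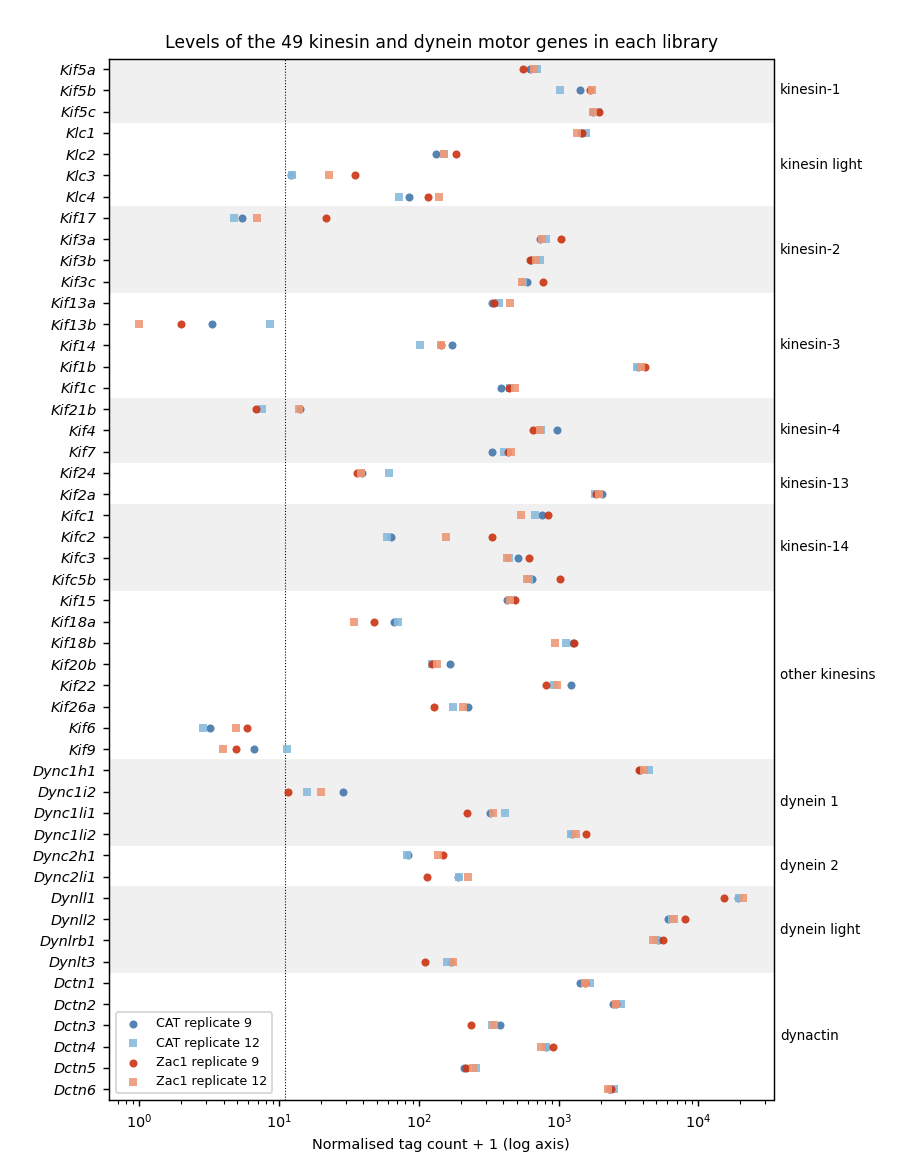
Normalised tag counts of the 49 motor genes, plus 1 and on a log axis, with a point for each of the 4 libraries and the genes grouped by role. The dotted line marks the minimum mean of 10. The Kifc2 points of the Zac1 libraries lie apart from those of the CAT libraries, while for most genes the 4 points lie close together.

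The set as a whole was centred where the rest of the transcriptome was. The median log2 fold change of the tested motor genes was -0.01, as it was over all genes tested, with 21 above 0 and 23 below. An absolute log2 fold change under 0.5 was measured for 38 of them, or 86.4%, against 87.1% of all genes. The median absolute log2 fold change was 0.16 for motor genes and 0.19 for all genes. Motor genes were well expressed, with a median mean level of 624 normalised tags against 310. Both Zac1 libraries were above both CAT libraries for 10 motor genes, or 22.7% (17.2% of all genes), and below both for 3, or 6.82% (16.7% of all genes).

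**Figure D2:**
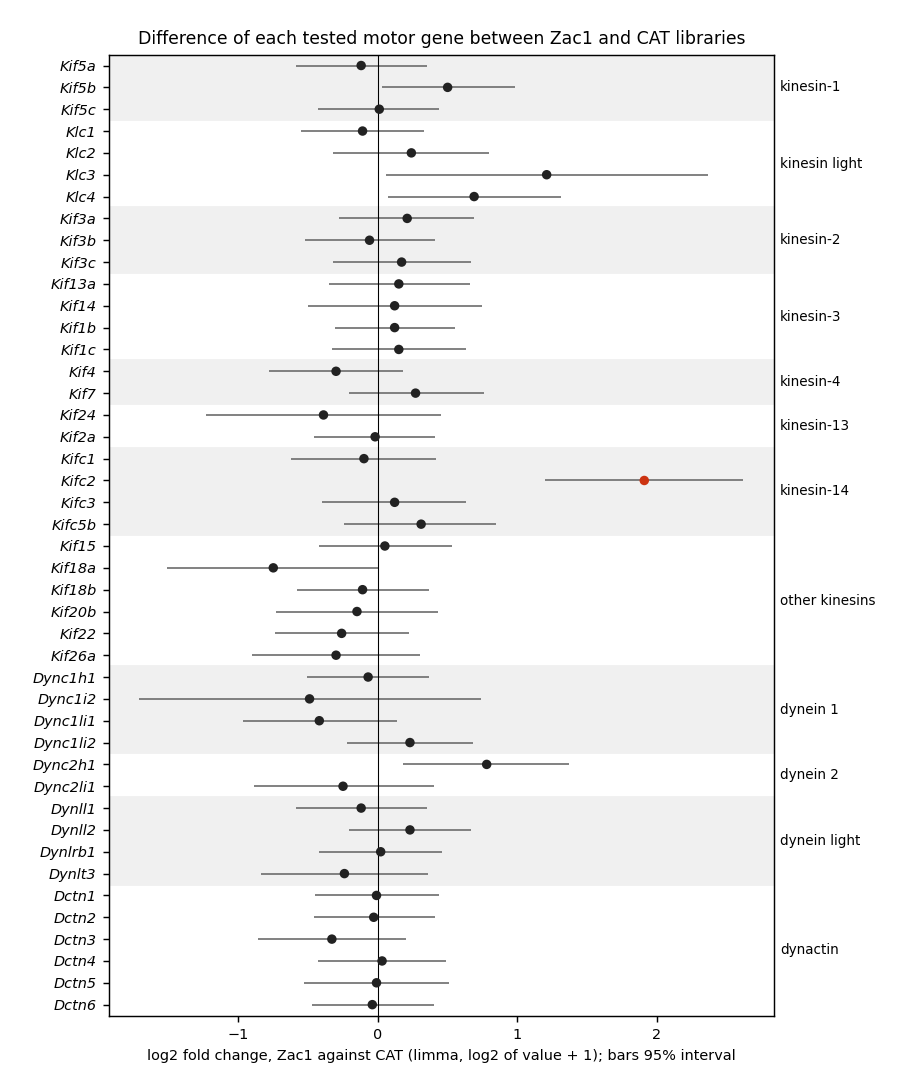
Log2 fold change of each of the 44 tested motor genes, Zac1 against CAT, from limma on log2(value + 1). Bars are 95% intervals and the red point marks Kifc2, the gene with an adjusted p under 0.05. It stands at 1.91, and the next highest, Klc3, at 1.21.

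Kifc2 (gene ID 16581, chromosome 15) had 62.1 and 58.2 normalised tags in CAT replicates 9 and 12, and 335 and 156 in Zac1 replicates 9 and 12. Both Zac1 libraries were above both CAT libraries. The CAT libraries lay close together. In tags, the Zac1 libraries differed from each other by more than CAT replicate 9 differed from Zac1 replicate 12. On the log2 scale of the test they differed by less. The means were 60.1 ± 2.80 and 246 ± 127 (SD, n = 2). Between same-numbered libraries the ratio was 5.4 for replicate 9 and 2.69 for replicate 12. The log2 fold change was 1.91 ± 0.33 (SE, 95% interval 1.2 to 2.62; limma, adjusted p = 0.00761 over all genes tested). As counts, 118 tags in the CAT libraries stood against 503 in the Zac1 libraries, a library-scaled ratio of 4.11 with an exact 95% interval of 3.36 to 5.06 that covers counting error only.

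Among the 110 genes called higher, Kifc2 ranked 46 by p and 76 by log2 fold change. The call rested on both Zac1 libraries. Without Zac1 replicate 9 the log2 fold change was 1.36 (limma, adjusted p = 0.766), and without Zac1 replicate 12 it was 2.46 (limma, adjusted p = 0.127). With the variance trend dropped, limma gave an adjusted p of 0.122. The Kifc2 transcript is GC-rich, at the 93.8th percentile of the genes tested, and after a GC correction of each library the log2 fold change was 1.73 (limma, adjusted p = 0.0269). In the reference annotation Kifc2 overlaps Foxh1, which had no line with a gene ID under that symbol and so no value, and Cyhr1. Cyhr1 had 430 and 403 tags in the CAT libraries and 588 and 468 in the Zac1 libraries (log2 fold change 0.33; limma, adjusted p = 0.955), and whether tags of overlapping genes were told apart is not given in the sources used here.

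The other kinesin-14 genes did not pass. Kifc1, a spindle motor that focuses poles, had 758 and 674 tags in CAT replicates 9 and 12 and 832 and 535 in the Zac1 libraries. Kifc5b, a close relative of Kifc1, had 648, 613, 1025 and 592 in the same order (log2 fold change 0.31; limma, adjusted p = 0.983). Kifc3, which acts at cell junctions and in transport to the cell surface, had 513, 437, 617 and 427. In all of these Zac1 replicate 9 was the highest library and Zac1 replicate 12 the lowest, so the groups overlapped. The summed level of the 4 kinesin-14 genes was 1980 and 1782 in the CAT libraries, 2809 in Zac1 replicate 9 and 1710 in Zac1 replicate 12.

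**Figure D3:**
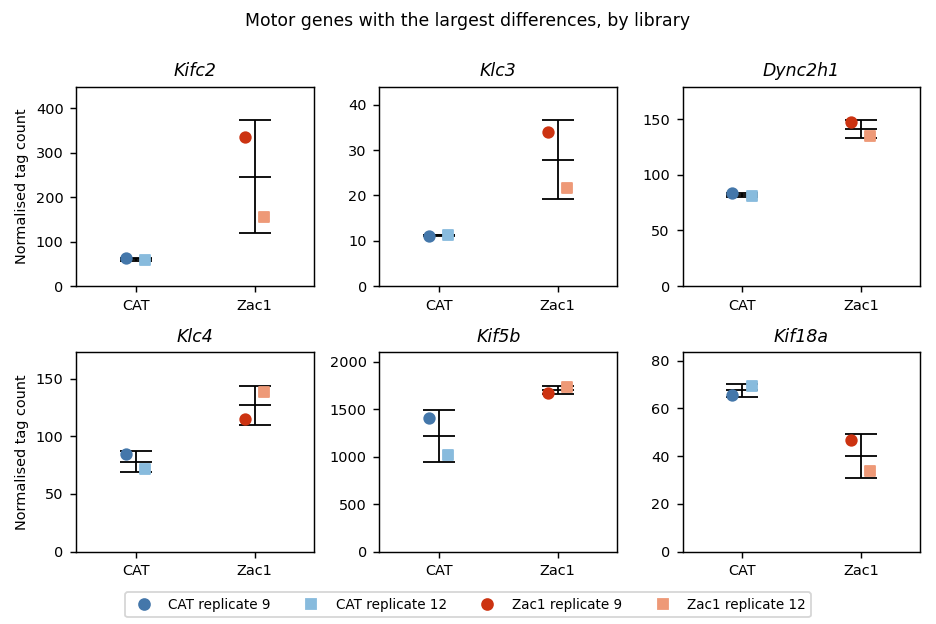
Normalised tag counts of 6 motor genes by library, on linear axes that start at 0, with the group mean and SD (n = 2). For Kifc2, Klc3, Dync2h1, Klc4 and Kif5b both Zac1 libraries lie above both CAT libraries, and for Kif18a both lie below. Kifc2 alone had an adjusted p under 0.05.

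No gene of kinesin-1, heavy or light chain, passed the test. Kif5b, the heavy chain found in most tissues, had 1410 and 1020 tags in the CAT libraries and 1670 and 1734 in Zac1 replicates 9 and 12. The groups did not overlap, but the CAT libraries differed from each other by more than CAT replicate 9 did from either Zac1 library. The log2 fold change was 0.50 ± 0.22 (SE; limma, adjusted p = 0.717). The neuronal heavy chains stayed closer: Kif5a had 621, 699, 554 and 663 tags, and Kif5c had 1764, 1924, 1933 and 1769. Their log2 fold changes were -0.12 and 0.01 (limma, adjusted p = 0.983 and 0.999).

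The light chains fell into a dominant member and 3 scarcer ones. Klc1, the light chain enriched in neurons, had 1454 and 1577 tags in the CAT libraries and 1459 and 1352 in the Zac1 libraries (log2 fold change -0.11; limma, adjusted p = 0.983). Klc2, a widely expressed light chain, had 132, 149, 184 and 149 (0.24; limma, adjusted p = 0.983).
Klc4, a further light chain, had 84.2 and 71.3 in the CAT libraries and 115 and 138 in Zac1 replicates 9 and 12. Both Zac1 values were above both CAT values, with a log2 fold change of 0.69 ± 0.29 (SE; limma, adjusted p = 0.644).
Klc3, best known from male germ cells in rodents, had 11.1 and 11.3 in the CAT libraries and 34 and 21.7 in the Zac1 libraries. Its log2 fold change of 1.21 ± 0.55 (SE) was the second highest of the tested motor genes (limma, adjusted p = 0.738). Klc3 rested on 22 and 57 tags in all, a ratio of 2.5 with an exact 95% counting interval of 1.5 to 4.29.

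The mix of members within a family can be read as a share of recovered tags. These families were chosen with the values known, and 2 against 2 libraries cannot give an exact two-sided permutation p below 0.333, so no test is given. Klc1 made up 86.5% and 87.2% of light chain tags in CAT replicates 9 and 12 (Wilson 95% intervals 84.7 to 88.1 and 85.6 to 88.6). In the Zac1 libraries it made up 81.5% and 81.4% (79.6 to 83.2 and 79.4 to 83.2). The Klc1 share was thus lower in both Zac1 libraries than in either CAT library. The intervals of the groups did not overlap, but they cover counting error only, and replicates differed by more than that. For the levels of single genes, both Zac1 libraries were below both CAT libraries in 16.7% of all genes tested. Kif5b made up 37.2% and 28.0% of Kif5 tags in the CAT libraries and 40.2% and 41.6% in the Zac1 libraries, and CAT replicate 9 was nearer to both Zac1 libraries than to CAT replicate 12. In kinesin-14, the Kifc5b share of Kifc1 and Kifc5b tags was 46.1% and 47.6% in the CAT libraries and 55.2% and 52.5% in the Zac1 libraries. The Wilson 95% intervals of CAT replicate 12 (45 to 50.3) and Zac1 replicate 12 (49.6 to 55.4) overlapped.

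**Figure D4:**
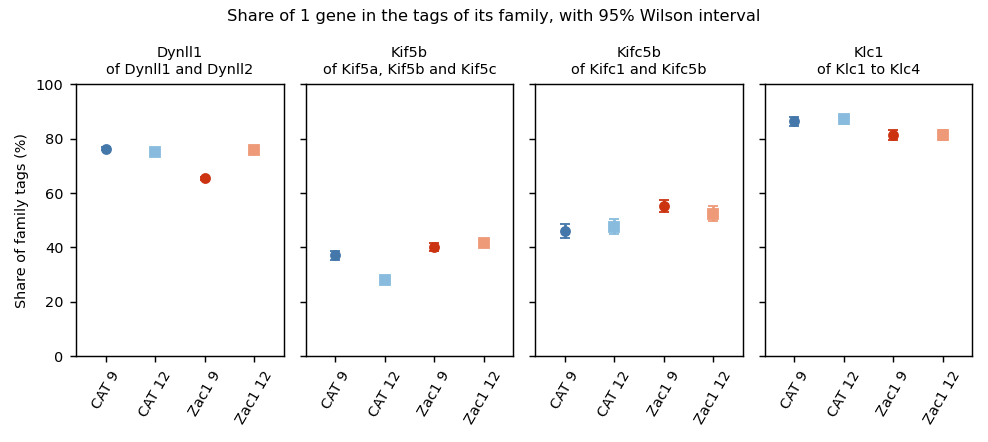
Share of recovered tags that 1 gene took of its family in each library, in percent, with Wilson 95% intervals that cover counting error only. The Klc1 share was 86.5% and 87.2% in the CAT libraries and 81.5% and 81.4% in the Zac1 libraries. The Dynll1 share was 65.5% in Zac1 replicate 9 and 75.1% to 76.2% in the other 3 libraries.

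The remaining kinesins gave no call. Kinesin-2 drives anterograde transport in cilia and axons. Its Kif3a subunit had 731 and 810 tags in the CAT libraries and 1040 and 758 in the Zac1 libraries, Kif3b had 634, 731, 623 and 686, and Kif3c had 592, 554, 768 and 543. Their log2 fold changes lay between -0.06 and 0.21. Kinesin-3 motors carry vesicles and, for Kif1b, mitochondria and synaptic vesicle precursors. Kif1b was the most abundant kinesin of the 49 genes, with 3706 and 3660 tags in the CAT libraries and 4148 and 3862 in the Zac1 libraries. Both Zac1 libraries were above both CAT libraries by a small margin (log2 fold change 0.12 ± 0.20 SE; limma, adjusted p = 0.983). The log2 fold changes of all 4 tested kinesin-3 genes lay between 0.12 and 0.15, with Kif13a at 334, 373, 342 and 451 tags and Kif1c at 387, 445, 439 and 485.

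Several tested kinesins act on chromosomes, spindles or centrioles. Kif18a, which restrains chromosome movement at the metaphase plate, had 65.5 and 69.5 tags in the CAT libraries and 46.7 and 33.6 in the Zac1 libraries. Both Zac1 libraries were below both CAT libraries, and the log2 fold change of -0.75 ± 0.36 (SE) was the lowest of the tested motor genes (limma, adjusted p = 0.811). Kif4, a chromokinesin, had 972 and 742 tags in the CAT libraries and 649 and 733 in the Zac1 libraries (log2 fold change -0.30; limma, adjusted p = 0.972). Kif24, a kinesin-13 of the centriole, had 37.9, 60.2, 35 and 37.6. Its log2 fold change was -0.39 (limma, adjusted p = 0.983), and CAT replicate 12 stood above the other libraries. Kif2a, a kinesin-13 that shortens microtubules, was even across libraries at 2036, 1820, 1848 and 1941. Kif22, another chromokinesin, had 1234, 931, 817 and 976 (log2 fold change -0.26; limma, adjusted p = 0.983). The mitotic kinesins set aside by the rule had a median log2 fold change of -0.02. Of these 4, 0 passed, beside 0.962% higher and 0% lower over all genes tested. Kif20a among them had 1649 and 1344 tags in the CAT libraries, 1989 in Zac1 replicate 9 and 1107 in Zac1 replicate 12.

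Kif7, a kinesin-4 that regulates hedgehog signalling at the cilium tip, had 333 and 405 tags in the CAT libraries and 433 and 454 in the Zac1 libraries (log2 fold change 0.27; limma, adjusted p = 0.983). The groups did not overlap, but the gap was smaller than the spread between the CAT libraries. Of the kinesins not described so far, Kif14, Kif15, Kif18b, Kif20b and Kif26a had log2 fold changes between -0.30 and 0.12, and their groups overlapped.

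Cytoplasmic dynein 1 showed no call in either direction. Its heavy chain Dync1h1, which carries the motor domain, was among the 8 most abundant motor genes. It had 3825 and 4424 tags in the CAT libraries and 3787 and 4057 in the Zac1 libraries (log2 fold change -0.07; limma, adjusted p = 0.988). The light intermediate chains, which bind cargo adaptors, had log2 fold changes on opposite sides of 0. Dync1li1 had 321, 414, 219 and 339 tags, with Zac1 replicate 9 lowest (-0.42; limma, adjusted p = 0.952). Dync1li2 had 1247 and 1221 in the CAT libraries and 1569 and 1337 in the Zac1 libraries (0.23; limma, adjusted p = 0.983). The intermediate chain gene Dync1i2 was read at only 27.5, 14.9, 10.6 and 18.8 tags. It was the member just over the minimum mean, and its log2 fold change was -0.49 ± 0.58 (SE; limma, adjusted p = 0.983).

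Dync2h1, the heavy chain of the ciliary dynein 2, had 83.2 and 80.7 tags in the CAT libraries and 147 and 135 in the Zac1 libraries. Replicates lay close together in both groups, and the means were 81.9 ± 1.79 and 141 ± 7.93 (SD, n = 2). The log2 fold change was 0.78 ± 0.28 (SE), with an unadjusted p of 0.0135 and an adjusted p of 0.401 (limma). The ratio was 1.76 between the libraries numbered 9 and 1.68 between those numbered 12. Its light intermediate chain Dync2li1 had 188 and 193 tags in the CAT libraries, 114 in Zac1 replicate 9 and 225 in Zac1 replicate 12. The Zac1 libraries thus lay on either side of the CAT libraries (log2 fold change -0.25; limma, adjusted p = 0.983).

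**Figure D5:**
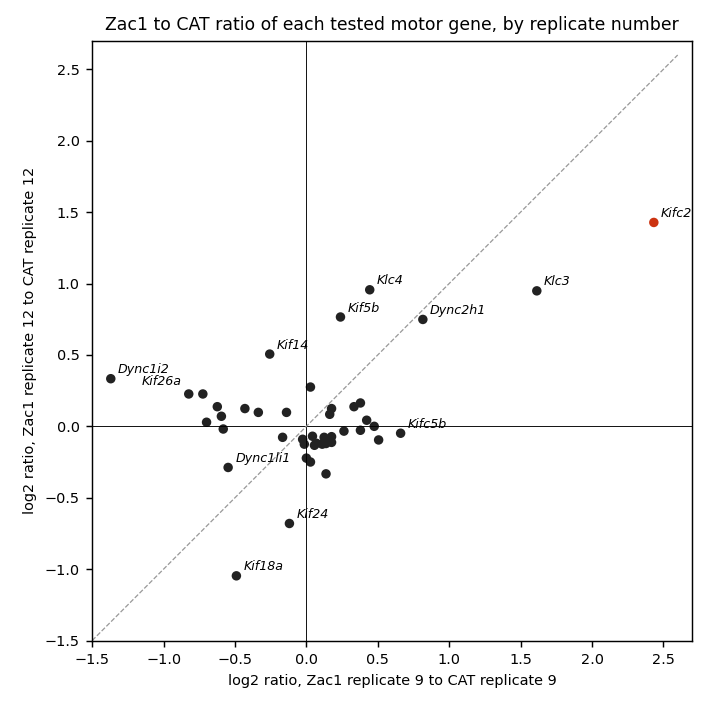
Log2 ratio of Zac1 to CAT for each tested motor gene, in the libraries numbered 9 (horizontal axis) and in those numbered 12 (vertical axis). Kifc2 lies far from 0 on both axes and Dync2h1 near the diagonal. Dync1i2 and Kif26a are among the genes with ratios of opposite sign.

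Of the 49 motor genes the 3 most abundant, Dynll1, Dynll2 and Dynlrb1, all encode dynein light chains. Dynll1, a small hub protein that binds dynein and many other partners, had 19300 and 19582 tags in the CAT libraries, 15293 in Zac1 replicate 9 and 20949 in Zac1 replicate 12. The Zac1 libraries thus lay on either side of the CAT libraries (log2 fold change -0.12; limma, adjusted p = 0.983). Its paralogue Dynll2 had 6025, 6481, 8056 and 6675, with both Zac1 libraries above both CAT libraries (0.23; limma, adjusted p = 0.983). The Dynll1 share of the tags of this pair was 76.2% and 75.1% in the CAT libraries, 65.5% in Zac1 replicate 9 (Wilson 95% interval 64.9 to 66.1) and 75.8% in Zac1 replicate 12. A single library, Zac1 replicate 9, thus stood apart in this share. Dynlrb1, a roadblock light chain, had 5159, 4959, 5608 and 4704, and Dynlt3, a Tctex-type light chain, had 168, 157, 109 and 173. Their log2 fold changes were 0.02 and -0.24 (limma, adjusted p = 0.996 and 0.983).

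The dynactin subunits lay close to 0. The 6 of them had log2 fold changes between -0.33 and 0.03 with a median of -0.02, and none passed. Dctn1, the p150Glued subunit that contacts dynein and the microtubule, had 1419 and 1680 tags in the CAT libraries and 1535 and 1540 in the Zac1 libraries. Dctn2, the dynamitin subunit, had 2462, 2796, 2581 and 2577. In both genes the Zac1 libraries lay between the CAT libraries. The pointed-end subunits Dctn4, Dctn5 and Dctn6 had 809, 805, 912 and 745, then 210, 255, 217 and 243, then 2275, 2484, 2367 and 2265. Dctn3, a subunit of the shoulder, had 378, 333, 233 and 341, with Zac1 replicate 9 lowest (-0.33; limma, adjusted p = 0.972). The adjusted p of the other 5 lay between 0.991 and 0.999 (limma).

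Zac1 replicate 9 was often the extreme library. It was the highest of the 4 for 17 tested motor genes, or 38.6%, against 33.7% of all genes tested, and the lowest for 13, or 29.5%, against 36.2%. The transcripts of the 17 had a median GC content of 53.7% and those of the 13 a median of 49%. The median was 49.1% for all tested motor genes and 50.1% for all genes tested. The part of GC content in these positions was not tested.

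The 5 motor genes under the minimum mean were Kif13b, Kif17, Kif21b, Kif6 and Kif9, and they entered no test. Kif17, a neuronal kinesin-2 that moves cargo in dendrites, had 4.43 and 3.74 tags in the CAT libraries, 20.5 in Zac1 replicate 9 and 5.91 in Zac1 replicate 12. Its ratio of recovered counts was 3.25, with an exact 95% interval of 1.44 to 8.29, and most of its Zac1 tags came from replicate 9. Kif13b, a kinesin-3, had 2.33, 7.57, 0.98 and 0, or 10 tags against 1, a ratio of 0.0964 (0.00222 to 0.678). Kif21b, a kinesin-4, lay just under the minimum with a mean of 9.58 and had 13.2, 6.49, 5.79 and 12.9 (ratio 0.964, 0.483 to 1.92). The count ratio was 2.17 (0.605 to 9.64) for Kif6 and 0.422 (0.147 to 1.08) for Kif9. These intervals cover counting error only, and replicate spread comes on top.

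The partners of the motors were read from lists outside the family, in which 0 genes rose and 0 fell (limma, adjusted p under 0.05). Over all genes tested 0.962% rose and 0% fell, so 0 calls in lists this short say little about the partners. Of the other dynactin subunits, 6 of 6 were tested, 1 above 0 and 5 below, with a median log2 fold change of -0.26. Actr10, which caps the pointed end of the dynactin filament, was lowest there, with 2284 and 2109 tags in the CAT libraries and 1473 and 1878 in the Zac1 libraries (-0.40; limma, adjusted p = 0.917). Of the dynein regulators and adaptors, 14 were tested, 10 above 0 and 4 below, with a median of 0.06. Ninl, a centrosomal protein related to ninein, had 28.8 and 28.1 tags in the CAT libraries and 63.1 and 61.3 in the Zac1 libraries. Its replicates lay close together in both groups (log2 fold change 1.10 ± 0.38 SE; limma, unadjusted p = 0.00979, adjusted p = 0.34).

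Of the kinesin adaptors and cargo linkers, 19 were tested, 9 above 0 and 10 below, with a median of -0.01. Mapk8ip1, the JIP1 scaffold that binds kinesin light chains, had 465 and 398 tags in the CAT libraries, 877 in Zac1 replicate 9 and 466 in Zac1 replicate 12 (log2 fold change 0.57; limma, adjusted p = 0.832). Clstn3, a calsyntenin, had 78.8, 87.3, 138 and 121 (0.63; limma, adjusted p = 0.739). Of 28 symbols listed for tubulins, microtubule-associated proteins and stathmins, 17 were present and 16 were tested. Of those tested, 6 were above 0 and 10 below, with a median of -0.08. The summed level of the 17 was 197850 and 178231 in the CAT libraries, 147821 in Zac1 replicate 9 and 174599 in Zac1 replicate 12. The most abundant of them, the alpha-tubulin gene Tuba1b, had 90357, 80611, 56523 and 73174 (-0.41; limma, adjusted p = 0.923).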

How the data were processed

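Tags were counted in 4 libraries of Neuro-2A cells. The deposited values are a normalised signal, and per the name of the authors' table they are pseudocounts after TMM normalisation. The authors used edgeR and the mm9 build, per the submitters' processing notes. How tags were mapped and assigned to genes is not given in the sources used here. Whole counts were recovered by inverting the edgeR pseudocount formula and were used for shares, counting intervals and count tests.

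The table had 12866 lines. The 5 without a gene ID were left out, and held at most 0.00897% of the counts of a library. Genes with a mean of at least 10 over the 4 libraries were tested, which left 11433 and excluded 1428. The table lists only genes with at least 10 counts in all. Tests were two-sided and used limma 3.58.1 in R 4.3.3 on log2(value + 1), a scale that understates changes of low genes, with a variance trend and no replicate term. Benjamini-Hochberg adjustment ran over all genes tested, with a threshold of 0.05. The p-values rest on 2 transfections per group and lean on the spread typical at each abundance, with 14.1 prior degrees of freedom.

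The members, lists and tests were chosen with earlier results of these data known. Named were every gene that passed, all kinesin-1, light chain, dynein 1 and dynactin genes, the 5 highest and 5 lowest log2 fold changes, the 8 highest levels, and genes next to the minimum mean. Other genes named were chosen after their values were seen. Alternatives were another pseudocount, no filter, equal totals, no trend, a replicate block, a GC correction, each library left out, edgeR 4.0.16 and DESeq2 1.42.0. The recovery of counts and the main limma fit, but not the alternatives, were tested on simulated data. There every gene and both groups had the same dispersion, unlike these libraries, where the Zac1 replicates spread more.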

Additional observations from a re-analysis of the deposited data

How the results depend on the processing

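The number of motor genes called higher was 1 under every alternative but 3, and no motor gene was called lower under any. It was 0 in limma without a trend, and between 0 and 1 with each library left out, since Kifc2 lost its adjusted p without either Zac1 library. Each of these 2 fits called 1 gene of all tested, and a lone library was then assumed to vary like the others. The Kifc2 log2 fold change stayed between 1.36 and 2.46 over 14 alternatives. On recovered counts it was 2.04, with an adjusted p of 0.00359 by edgeR (quasi-likelihood) and 0.000144 by DESeq2. With equal totals the median of the motor genes was 0.05, as was that of all genes tested.

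Kif18a, Klc3, Klc4, Dync2h1 and Kif5b kept their direction in all 14 alternatives and passed in none. Some other genes changed sign, and not only those near 0. In the main fit Kifc5b stood at 0.31, Kif26a at -0.30 and Dync2li1 at -0.25. With equal totals, log2 fold changes turned to 0.06 for Dctn1, 0.04 for Dctn2, 0.05 for Dctn5, 0.02 for Dctn6, 0.04 for Kif2a and 0 for Kif3b. After GC correction they turned to 0.03 for Dctn2, 0.06 for Dctn5, 0.02 for Dctn6, 0.08 for Kif2a, -0.10 for Dynlrb1 and -0.07 for Kifc3. In edgeR's quasi-likelihood and exact tests Dctn1 was at 0. With each library left out the log2 fold change ran from -0.13 to 0.11 for Dctn1, -0.12 to 0.07 for Dctn2, -0.12 to 0.18 for Dctn4, -0.15 to 0.13 for Dctn5, -0.10 to 0.03 for Dctn6, -0.17 to 0.04 for Dync1h1, -0.74 to 0.24 for Dync2li1, -0.35 to 0.11 for Dynll1 and -0.10 to 0.15 for Dynlrb1. It ran from -0.57 to 0.09 for Dynlt3, -0.05 to 0.35 for Kif13a, -0.26 to 0.50 for Kif14, -0.02 to 0.13 for Kif15, -0.33 to 0.12 for Kif18b, -0.37 to 0.07 for Kif20b, -0.64 to 0.04 for Kif26a, -0.10 to 0.06 for Kif2a and -0.02 to 0.43 for Kif3a. It ran from -0.16 to 0.04 for Kif3b, -0.08 to 0.42 for Kif3c, -0.25 to 0.01 for Kif5a, -0.06 to 0.07 for Kif5c, -0.42 to 0.22 for Kifc1, -0.15 to 0.38 for Kifc3 and -0.09 to 0.70 for Kifc5b. For Kifc5b, Dync2li1, Dynll1, Dynlt3, Kif26a, Kif3a, Kif3c, Kif5a and Dctn4, the sign turned only with Zac1 replicate 9 left out. Kif13a, Kif18b and Kifc1 turned only without Zac1 replicate 12. Dync1h1 and Kif14 turned only without CAT replicate 12, and Kif15 and Kif20b only without CAT replicate 9. The cause of these turns was not tested.

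Same-numbered libraries deviated together only weakly, with a correlation of 0.2 across the genes tested, and there were only 2 pairs. The numbers are thus not shown to pair the samples. With a replicate block limma called 279 genes higher in place of 110, and of the motor genes again 1, Kifc2 (adjusted p = 8.18e-09). Its log2 fold change was 1.91, as in the main fit. A block leaves fewer residual degrees of freedom, so this p-value leans still more on the spread typical at each abundance. The count of all genes called higher was 79 without a trend, 69 after GC correction, 150 by edgeR (quasi-likelihood) and 143 by DESeq2. It was 341 in edgeR's exact test, which was chosen after seeing the data. Depth limits the 5 motor genes under the minimum mean, and Klc3 and Dync1i2 just above it.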

Other observations

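Axonemal dyneins, which drive the beating of motile cilia and are no members of the motor set, were listed for 8 genes, of which 6 were tested. None passed (limma, adjusted p under 0.05), beside 0.962% higher and 0% lower over all genes tested. The heavy chain gene Dnahc17 had 51.0 and 45.9 normalised tags in the CAT libraries and 127 and 75.1 in the Zac1 libraries (log2 fold change 1.00; limma, adjusted p = 0.352). Dnahc10 had 6.64, 5.61, 23.3 and 16.8 (1.55; limma, adjusted p = 0.657), and the intermediate chain gene Dnaic1 had 8.86, 7.49, 25.3 and 15.8 (1.2; limma, adjusted p = 0.902). Dnahc10 and Dnaic1 were under 10 in both CAT libraries and reached the minimum mean of 10 only through the Zac1 libraries, so nothing is read from their direction. Dnahc1 had 76.6, 77.9, 103 and 116 (0.49; limma, adjusted p = 0.939). The log2 fold change was 0.17 for Dnalc1 and 0.01 for Dnalc4. Both Zac1 libraries were above both CAT libraries for Dnahc17 and Dnahc1, as they were for 17.2% of all genes tested.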
